A study of Homo sapiens with 12 samples.

Results

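Transcripts of 10 genes that write, extend or remove repressive chromatin marks were followed: the polycomb repressive complex 2 (PRC2) genes EZH2, EZH1, SUZ12, EED and JARID2, the DNA methyltransferase genes DNMT1, DNMT3A and DNMT3B, and the 5-methylcytosine oxidase genes TET1 and TET2. They were picked by gene symbol from the 58735 genes of the expression table, and all 10 passed the filter for testing, a mean of at least 0.5 FPKM (fragments per kilobase of exon, scaled to library size) over the 12 libraries, as did 15856 genes in all. RNA came from untreated cultures of human neuroblastoma, a tumour of the developing sympathetic nervous system. The series concerns TSPYL5, a protein of the TSPY and nucleosome assembly family, in the stem-like properties of these tumour cells.

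Each of the 4 groups held 3 libraries. SK_N_SH_shNC was SK-N-SH with the control hairpin, given as wild type, and SK_N_SH_shL5 was SK-N-SH labelled as TSPYL5 knockdown. SK_N_BE2_shNC and SK_N_BE2_shL5 were the matching control and TSPYL5 knockdown groups of a second line, which the titles call SK_N_BE2 and the cell line label calls SH-SY5Y. The title names are used here. All groups carried a hairpin, and the hairpin's sequence, the vector, and whether cells were clones or pools are not given in the sources used here. No label says that the 3 libraries of a group came from separate cultures, so p-values measure the spread between these libraries, which may be technical.

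PRC2 places methyl groups on lysine 27 of histone H3, a mark of silenced genes. EZH2 or its paralog EZH1 is the catalytic subunit, EED reads the mark and activates the enzyme, SUZ12 holds the complex together, and JARID2 is an accessory subunit that helps recruit it. DNMT1 copies DNA methylation onto the new strand after replication, DNMT3A and DNMT3B methylate new sites, and TET enzymes oxidise 5-methylcytosine on the way to its removal. In neuroblastoma EZH2 is known as a dependency of tumours with amplified MYCN.

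The promoters of the genes are shown first. EZH2 and DNMT1 passed the test in the direction of the S phase genes within each labelled line, as did EED, JARID2, DNMT3A, DNMT3B, TET1 and TET2. EZH1, the paralog of EZH2, and SUZ12 did so in 1 of the 2 lines. Of all tested genes, 40.7% were higher in SK_N_SH_shL5 and 40.2% lower in SK_N_BE2_shL5. All 10 genes matched RefSeq promoter windows on GRCh38.p14 of 300 bases each, 250 before and 50 from the transcription start, with 20 windows in total. The 250 bases before the start of EZH2 and EZH1 are printed from 5′ to 3′ on the gene's strand, with CpG dinucleotides, the bases that DNA methyltransferases modify, in capitals.
EZH2, chr7:148884292-148884541, minus strand: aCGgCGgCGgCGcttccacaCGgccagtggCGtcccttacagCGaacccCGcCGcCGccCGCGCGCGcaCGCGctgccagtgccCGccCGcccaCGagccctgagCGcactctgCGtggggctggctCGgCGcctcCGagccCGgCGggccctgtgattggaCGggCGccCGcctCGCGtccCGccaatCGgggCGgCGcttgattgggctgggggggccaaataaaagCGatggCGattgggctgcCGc
EZH1, chr17:42745041-42745290, minus strand: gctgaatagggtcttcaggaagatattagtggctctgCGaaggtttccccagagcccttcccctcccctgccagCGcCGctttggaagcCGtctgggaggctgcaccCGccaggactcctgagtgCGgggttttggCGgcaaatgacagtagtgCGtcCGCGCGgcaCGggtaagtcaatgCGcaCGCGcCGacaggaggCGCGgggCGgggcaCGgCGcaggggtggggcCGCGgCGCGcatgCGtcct
The EZH2 stretch holds 38 CpG and the EZH1 stretch 26. Over the whole window EZH2 has 46 CpG, more than 97.1% of the 34943 windows in the reference table, and EZH1 has 30, more than 77.6%. The single DNMT3B window lies at the other end with 3 CpG, and the median of all windows is 14. That window belongs to a start at 32779852, inside the gene, whose annotated start is 32762385. The promoter at the annotated start of DNMT3B was therefore not examined.

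E2F factors are the regulators of S phase genes, and 4 words of their consensus (TTTGGCGC, TTTCCCGC, TTTGCCGC and TTTCGCGC) were searched on both strands. A word was present in 4 windows of these genes and in 3.30% of all 34943 windows. Each word holds a CpG, and the matched windows of EZH2, EZH1, SUZ12 and DNMT1 held 46, 30, 40 and 30 CpG. The median of all windows is 14, and the share was not matched for CpG content, so no enrichment is read from it. Each match is printed below within 30 bases of its gene's strand, with the word or its reverse complement in capitals.
EZH2, chr7:148884272-148884301, minus strand: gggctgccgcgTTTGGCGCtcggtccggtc
EZH1, chr17:42745137-42745166, minus strand: gcggggttttgGCGGCAAAtgacagtagtg
SUZ12, chr17:31936807-31936836, plus strand: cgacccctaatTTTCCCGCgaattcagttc
DNMT1, chr19:10194937-10194966, minus strand: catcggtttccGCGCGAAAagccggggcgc
With the start counted as 1 and the base before it as -1, the words begin at 2 in EZH2, -115 in EZH1, -189 in SUZ12 and -2 in DNMT1. No other window of the 10 genes held these letters, so none was found for EED, JARID2, DNMT3A, DNMT3B, TET1 or TET2. The genes with a word include EZH1 and SUZ12, which passed within the SK-N-BE2 label but not within the SK-N-SH label. This search says nothing of the other sequences an E2F factor can bind. It says nothing of starts without a window either, such as the annotated starts of DNMT1 and DNMT3B. The DNMT1 window belongs to a start at 10194953, inside the gene, whose annotated start on the minus strand is 10231286. The E-box CACGTG, a word that MYC-family factors recognise, was in 7.23% of all windows and in 3 windows of these genes, of which 2 overlapping DNMT3A windows share a single site. The DNMT3A site lies upstream of a start inside the gene body and the TET2 site just before the gene's first start, at -75 and -14, and the E-box is in capitals.
DNMT3A, chr2:25252373-25252402, minus strand: tccagcggggccCACGTGacctggagtcct
TET2, chr4:105145849-105145878, plus strand: ttctactcagccCACGTGgctaaagtaaac
A match is a description of the letters and not of a bound factor.

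Several properties of the libraries bear on every comparison below. Libraries held 15425460 to 19249018 reads. TSPYL5, the targeted gene, stood at 13.1, 13.4 and 12.2 FPKM in SK_N_SH_shNC and at 17.1, 18.3 and 17.8 FPKM in SK_N_SH_shL5, so it was higher in the libraries labelled as its knockdown (log2 fold 0.43, SE 0.05, adjusted p = 7.45e-06). In SK_N_BE2_shNC it stood at 24.0, 24.4 and 25.8 FPKM and in SK_N_BE2_shL5 at 13.3, 12.4 and 12.6 FPKM (log2 fold -0.90, SE 0.05, adjusted p = 9.86e-09). MYCN, an oncogenic transcription factor gene that some neuroblastomas amplify, ranged from 988 to 1082 FPKM in the SK_N_SH_shL5 and SK_N_BE2_shNC libraries and from 0 to 0.0813 FPKM in the SK_N_SH_shNC and SK_N_BE2_shL5 libraries. As background, SK-N-SH and its subclone SH-SY5Y are known as lines without MYCN amplification, and SK-N-BE(2) as a line with it. Across genes, libraries of SK_N_SH_shL5 and SK_N_BE2_shNC correlated at 0.986 to 0.987 and libraries of SK_N_SH_shNC and SK_N_BE2_shL5 at 0.960 to 0.975, whereas shL5 and shNC libraries of a labelled line correlated at 0.692 to 0.724. Groups are therefore called by their labels throughout, a hairpin effect cannot be told apart from a difference between lines, and the comparisons across labelled lines stand beside those within them.

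Markers of cell state divided the libraries in that manner. Summed levels of 9 noradrenergic markers, among them the transmitter enzyme gene TH and the granule gene CHGA, were 1196 to 1286 FPKM in SK_N_SH_shL5 and 1348 to 1397 FPKM in SK_N_BE2_shNC, against 83.9 to 97.1 FPKM in SK_N_SH_shNC and 70.5 to 86.6 FPKM in SK_N_BE2_shL5. TH had 0 reads in the latter groups, which allows up to 0.0165 and 0.0175 FPKM by 3 reads over the group, counting error alone. At most 1 and 3 of the 9 noradrenergic markers were at 0 in a library of those groups, and none of the mesenchymal ones was. Summed levels of 10 mesenchymal markers ran the other way, from 836 to 843 FPKM in SK_N_SH_shNC and 798 to 870 FPKM in SK_N_BE2_shL5 against 282 to 308 FPKM in the other libraries. Single markers were mixed by limma (adjusted p below 0.05). Against shNC of the same label, 6 of the 10 were lower and 2 higher in SK_N_SH_shL5, and 8 higher and 2 lower in SK_N_BE2_shL5. TH passed the filter through SK_N_SH_shL5 and SK_N_BE2_shNC. All 9 noradrenergic markers were higher in SK_N_SH_shL5 and lower in SK_N_BE2_shL5. Of all tested genes 40.7% were higher and 39.0% lower in the former, and 39.9% and 40.2% in the latter. Epithelial markers, mainly KRT18 and KRT8, summed to 19.8 to 29.6 FPKM in SK_N_SH_shNC and SK_N_BE2_shL5 and to 0.957 to 1.78 FPKM elsewhere, 6 Schwann cell markers to at most 7.48 FPKM, and 7 blood and endothelial markers to at most 1.65 FPKM. Of the 3 epithelial markers tested, 2 were lower and 1 higher in SK_N_SH_shL5, and 2 higher and 1 lower in SK_N_BE2_shL5. The part of these states in the results below was not tested.

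Under the SK-N-SH label, 8 of the 10 genes were higher in shL5 than in shNC, none was lower, and EZH1 and SUZ12 did not pass the test (limma, two-sided, Benjamini-Hochberg adjusted p below 0.05 over all genes tested). Of all tested genes 79.8% passed, 40.7% higher and 39.0% lower, so a call in itself sets none of these genes apart. Their median log2 fold was 0.94 against 0.02 over all tested genes, and their median absolute log2 fold was 0.94 against 0.64. Under the SK-N-BE2 label all 10 genes were lower in shL5, where 80.0% of tested genes passed, 39.9% higher and 40.2% lower. There the median absolute log2 fold of the 10 genes was 0.89 against 0.64. DNMT3A and TET1 had the largest log2 folds and SUZ12 the smallest in each of these comparisons. The mean of TET1 was below 0.5 FPKM in SK_N_SH_shNC and in SK_N_BE2_shL5, so it passed the filter through the other groups. In bulk RNA, fewer cells with a transcript and less of it per cell cannot be told apart.

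**Figure D1:**
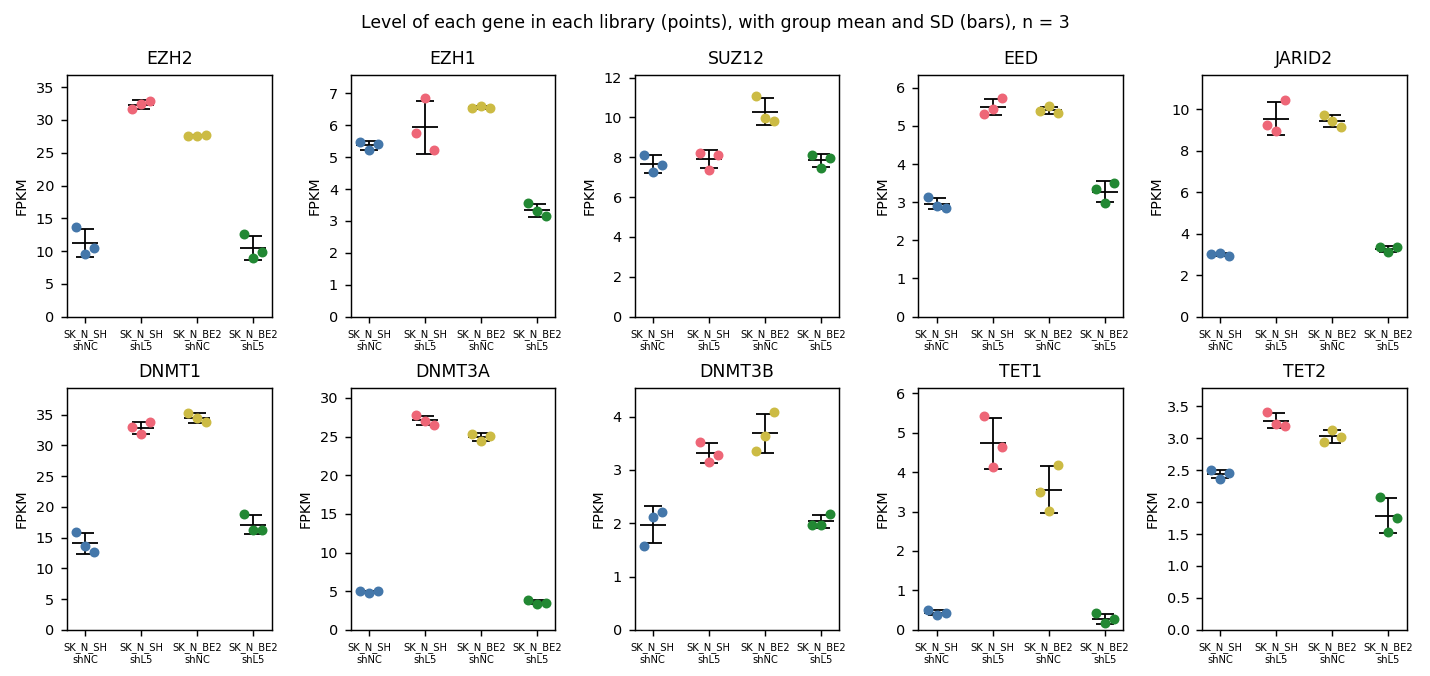
FPKM of each of the 10 genes (vertical axis, starting at 0) in the 4 groups, with each library as a point and the group mean and SD as bars (n = 3). In 8 genes the SK_N_SH_shL5 and SK_N_BE2_shNC libraries are all above the others, while EZH1 and SUZ12 depart from that order.

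EZH2 (ENSG00000106462, GRCh38 chromosome 7, 148807383 to 148884321, minus strand) was read at 13.7, 9.63 and 10.4 FPKM in SK_N_SH_shNC and at 31.6, 32.4 and 32.9 FPKM in SK_N_SH_shL5. It was at 27.6, 27.5 and 27.6 FPKM in SK_N_BE2_shNC and at 12.6, 9.004 and 9.80 FPKM in SK_N_BE2_shL5. The groups of each labelled line did not overlap. The mean was 2.88-fold higher in SK_N_SH_shL5 (log2 fold 1.46, SE 0.12, adjusted p = 4.18e-07) and 2.63-fold lower in SK_N_BE2_shL5 (log2 fold -1.33, SE 0.12, adjusted p = 9.42e-07). Its spread between libraries was wider where it was low, with an SD of 2.13 on a mean of 11.2 FPKM in SK_N_SH_shNC and 1.89 on 10.5 FPKM in SK_N_BE2_shL5, against 0.652 on 32.3 and 0.0679 on 27.6 FPKM in the high groups.

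EZH1 (ENSG00000108799, chromosome 17, 42700275 to 42745049, minus strand), the paralog that forms a less active PRC2 and is known from non-dividing cells, did not pass the test under the SK-N-SH label and was lower, as EZH2 was, under the SK-N-BE2 label. EZH1 levels were 5.48, 5.22 and 5.42 FPKM in SK_N_SH_shNC and 5.75, 6.84 and 5.22 FPKM in SK_N_SH_shL5, which overlap (log2 fold 0.12, 95% interval -0.05 to 0.28, adjusted p = 0.166). Leaving out the third SK_N_SH_shL5 library gave a log2 fold of 0.19 and an adjusted p of 0.0250 by limma, so this call rests on that library. In the second line EZH1 was at 6.54, 6.61 and 6.54 FPKM in shNC and at 3.56, 3.31 and 3.15 FPKM in shL5, without overlap (1.96-fold lower, log2 fold -0.80, SE 0.07, adjusted p = 9.72e-07). EZH1 thus had its lowest level in SK_N_BE2_shL5, below every other library of the series.

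The balance of the catalytic subunits moved with EZH2. EZH2 made up 67.3% ± 3.51 of the summed EZH1 and EZH2 FPKM in SK_N_SH_shNC and 84.5% ± 1.88 in SK_N_SH_shL5 (SD, n = 3). It made up 80.8% ± 0.133 in SK_N_BE2_shNC and 75.6% ± 2.44 in SK_N_BE2_shL5. All 12 libraries held more EZH2 than EZH1 per length, from 1.85 to 6.30 times as much. The share spanned a narrower range in the second line, where EZH1 fell together with EZH2.

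Of the core subunits, EED (ENSG00000074266, chromosome 11, 86244544 to 86278813, plus strand) followed EZH2. EED levels were 3.14, 2.90 and 2.85 FPKM in SK_N_SH_shNC, 5.32, 5.43 and 5.73 FPKM in SK_N_SH_shL5, 5.38, 5.51 and 5.34 FPKM in SK_N_BE2_shNC, and 3.35, 2.98 and 3.50 FPKM in SK_N_BE2_shL5. The groups of a labelled line did not overlap, with a 1.85-fold higher mean in SK_N_SH_shL5 (log2 fold 0.71, SE 0.06, adjusted p = 2.20e-07) and a 1.65-fold lower mean in SK_N_BE2_shL5 (log2 fold -0.59, SE 0.06, adjusted p = 1.24e-06).

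SUZ12 (ENSG00000178691, chromosome 17, 31937018 to 32001045, plus strand) had another order, with SK_N_BE2_shNC above the other 3 groups. It was at 8.13, 7.25 and 7.59 FPKM in SK_N_SH_shNC, 8.21, 7.37 and 8.14 FPKM in SK_N_SH_shL5, 11.1, 9.99 and 9.83 FPKM in SK_N_BE2_shNC, and 8.11, 7.47 and 7.97 FPKM in SK_N_BE2_shL5. The SK-N-SH groups overlapped (log2 fold 0.04, 95% interval -0.09 to 0.18, adjusted p = 0.558), and SK_N_BE2_shL5 was 1.31-fold below its control (log2 fold -0.35, SE 0.06, adjusted p = 0.000233). The ratio of EZH2 to SUZ12 was 1.46 ± 0.191 in SK_N_SH_shNC, 4.10 ± 0.275 in SK_N_SH_shL5, 2.69 ± 0.171 in SK_N_BE2_shNC and 1.33 ± 0.194 in SK_N_BE2_shL5 (SD, n = 3). SUZ12 values are uncertain, because SUZ12P1, a transcribed pseudogene on chromosome 17 (30709299 to 30790908), is a near copy and counting could split reads between them. SUZ12P1 itself ranged from 1.63 to 2.63 FPKM in SK_N_SH_shNC and SK_N_BE2_shL5 and from 4.03 to 5.43 FPKM in the other groups.

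JARID2 (ENSG00000008083, chromosome 6, 15246296 to 15522040, plus strand), the accessory subunit, had a wide gap between groups. It was at 3.04, 3.06 and 2.91 FPKM in SK_N_SH_shNC, 9.27, 8.96 and 10.4 FPKM in SK_N_SH_shL5, 9.72, 9.44 and 9.15 FPKM in SK_N_BE2_shNC, and 3.38, 3.10 and 3.34 FPKM in SK_N_BE2_shL5. The mean was 3.18-fold higher in SK_N_SH_shL5 (log2 fold 1.40, SE 0.06, adjusted p = 7.09e-10) and 2.88-fold lower in SK_N_BE2_shL5 (log2 fold -1.29, SE 0.06, adjusted p = 1.32e-09).

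DNMT1 (ENSG00000130816, chromosome 19, 10133345 to 10231286, minus strand), the maintenance methyltransferase, had the highest mean over all libraries among the 10 genes at 24.6 FPKM. Its levels were 15.9, 13.6 and 12.6 FPKM in SK_N_SH_shNC, 33.0, 31.8 and 33.8 FPKM in SK_N_SH_shL5, 35.3, 34.4 and 33.7 FPKM in SK_N_BE2_shNC, and 18.9, 16.2 and 16.3 FPKM in SK_N_BE2_shL5. The groups of a labelled line did not overlap, and the differences were 2.34-fold upward in SK_N_SH_shL5 (log2 fold 1.18, SE 0.08, adjusted p = 5.39e-08) and 2.01-fold downward in SK_N_BE2_shL5 (log2 fold -0.97, SE 0.08, adjusted p = 2.85e-07). DNMT1 shares 83 exon bases, 0.847% of its exons, with S1PR2 on the same strand, and S1PR2 stayed between 2.26 and 3.398 FPKM.

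DNMT3A (ENSG00000119772, chromosome 2, 25227855 to 25342590, minus strand), a de novo methyltransferase, changed most on the log2 scale. It was at 5.08, 4.82 and 4.97 FPKM in SK_N_SH_shNC and at 27.8, 26.99 and 26.5 FPKM in SK_N_SH_shL5, a 5.46-fold difference of the means (log2 fold 2.24, SE 0.05, adjusted p = 2.84e-12). It was at 25.4, 24.4 and 25.03 FPKM in SK_N_BE2_shNC and at 3.88, 3.38 and 3.46 FPKM in SK_N_BE2_shL5, a 6.98-fold lower mean (log2 fold -2.51, SE 0.05, adjusted p = 1.02e-12). In absolute size these log2 folds exceeded those of 92.8% and 93.7% of tested genes.

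DNMT3B (ENSG00000088305, chromosome 20, 32762385 to 32809356, plus strand), the other de novo enzyme, was low throughout and changed less. It was at 1.58, 2.13 and 2.22 FPKM in SK_N_SH_shNC, 3.52, 3.14 and 3.29 FPKM in SK_N_SH_shL5, 3.35, 3.64 and 4.08 FPKM in SK_N_BE2_shNC, and 1.97, 1.97 and 2.18 FPKM in SK_N_BE2_shL5, on 136 to 313 reads per library. The groups did not overlap within a labelled line, with log2 folds of 0.54 (SE 0.09, adjusted p = 0.000134) and -0.62 (SE 0.09, adjusted p = 4.25e-05). The ratio of DNMT3A to DNMT3B was 2.58 ± 0.558 in SK_N_SH_shNC, 8.18 ± 0.367 in SK_N_SH_shL5, 6.80 ± 0.725 in SK_N_BE2_shNC and 1.76 ± 0.197 in SK_N_BE2_shL5 (SD, n = 3). DNMT1 exceeded DNMT3A per length in every library, from 1.18 to 1.41 times in SK_N_SH_shL5 and SK_N_BE2_shNC, from 2.54 to 3.14 times in SK_N_SH_shNC and from 4.71 to 4.86 times in SK_N_BE2_shL5.

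TET1 (ENSG00000138336, chromosome 10, 68560656 to 68694482, plus strand) had the largest ratio of means. Its levels were 0.503, 0.376 and 0.421 FPKM in SK_N_SH_shNC and 5.42, 4.14 and 4.62 FPKM in SK_N_SH_shL5, a 10.9-fold difference (log2 fold 1.99, SE 0.11, adjusted p = 1.23e-08). They were 3.48, 3.00 and 4.19 FPKM in SK_N_BE2_shNC and 0.418, 0.166 and 0.276 FPKM in SK_N_BE2_shL5, a 12.4-fold lower mean (log2 fold -1.82, SE 0.11, adjusted p = 2.59e-08). The low groups rest on 26 to 87 reads per library, and the pseudocount of 1 makes the log2 folds smaller than the ratios.

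TET2 (ENSG00000168769, chromosome 4, 105145875 to 105279816, plus strand) moved in the direction of TET1 by a smaller amount. It was at 2.50, 2.37 and 2.45 FPKM in SK_N_SH_shNC, 3.41, 3.23 and 3.18 FPKM in SK_N_SH_shL5, 2.94, 3.13 and 3.02 FPKM in SK_N_BE2_shNC, and 2.08, 1.54 and 1.74 FPKM in SK_N_BE2_shL5. The groups of a line did not overlap, with log2 folds of 0.31 (SE 0.07, adjusted p = 0.00110) and -0.54 (SE 0.07, adjusted p = 1.51e-05). TET1 supplied 8.03% ± 0.735 of the summed TET1, TET2 and TET3 FPKM in SK_N_SH_shNC, 26.3% ± 1.80 in SK_N_SH_shL5, 22.5% ± 2.30 in SK_N_BE2_shNC and 6.60% ± 2.33 in SK_N_BE2_shL5 (SD, n = 3).

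Summed over the families, the opposing enzymes moved together. DNMT1, DNMT3A and DNMT3B added up to 21.0 ± 1.42 FPKM in SK_N_SH_shNC, 63.3 ± 1.20 in SK_N_SH_shL5, 63.1 ± 0.786 in SK_N_BE2_shNC and 22.7 ± 1.72 in SK_N_BE2_shL5 (SD, n = 3). The 3 TET genes added up to 5.38 ± 0.317, 17.9 ± 1.29, 15.7 ± 1.054 and 4.24 ± 0.433 FPKM in that order. The ratio of the DNMT sum to the TET sum stayed between 3.31 and 4.27 in 9 libraries and was 5.34, 5.71 and 5.08 in SK_N_BE2_shL5, the group where TET1, TET2 and TET3 were lowest.

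**Figure D2:**
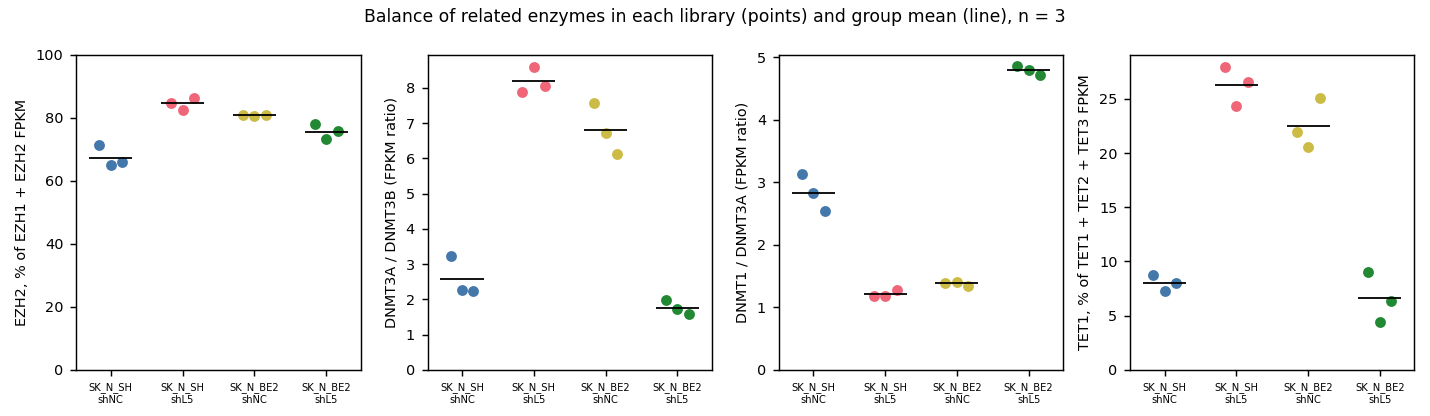
EZH2 as a percentage of EZH1 and EZH2 FPKM, the FPKM ratios of DNMT3A to DNMT3B and of DNMT1 to DNMT3A, and TET1 as a percentage of the TET FPKM sum, with each library as a point and the group mean as a line (n = 3, axes from 0). DNMT3A to DNMT3B and the TET1 share are high in SK_N_SH_shL5 and SK_N_BE2_shNC, while DNMT1 to DNMT3A is highest in SK_N_BE2_shL5.

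The difference between libraries labelled shL5 and shNC was unlike in the labelled lines for each of the 10 genes, as it did for 84.9% of all tested genes, 41.8% with a positive and 43.1% with a negative difference. The difference of the log2 folds, SK-N-BE2 minus SK-N-SH, was most negative for DNMT3A at -4.74 (SE 0.07, adjusted p = 3.93e-14) and TET1 at -3.81 (SE 0.16, adjusted p = 4.54e-10), and nearest 0 for SUZ12 at -0.39 (SE 0.09, adjusted p = 0.00122) and TET2 at -0.85 (SE 0.09, adjusted p = 4.36e-06). This comparison is built from the libraries of the previous ones and is not separate evidence.

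Between the control groups, all 10 genes were higher in SK_N_BE2_shNC than in SK_N_SH_shNC, where 79.6% of tested genes passed, 40.7% higher and 38.9% lower. The log2 folds ran from 0.23 for TET2 (SE 0.07, adjusted p = 0.00844) and 0.25 for EZH1 (SE 0.07, adjusted p = 0.00909) to 2.12 for DNMT3A (SE 0.05, adjusted p = 4.07e-12). These control libraries also enter the comparisons above, so the counts are not independent of one another.

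Across the labelled lines, SK_N_SH_shL5 and SK_N_BE2_shNC differed little. SUZ12 was 1.30-fold lower in SK_N_SH_shL5 (log2 fold -0.34, SE 0.06, adjusted p = 0.00838) and the other 9 genes did not pass, in a comparison where 5.39% of tested genes passed, 2.26% higher and 3.12% lower. For EZH2 the libraries did not overlap, 31.6 to 32.9 against 27.5 to 27.6 FPKM, yet the difference missed the threshold when all groups shared a spread (log2 fold 0.22, 95% interval -0.05 to 0.49, adjusted p = 0.379). With the spread taken from those groups alone EZH2 passed in limma (adjusted p = 0.0115). TET1 had the largest estimate among those that did not pass, 0.33 with an interval of 0.09 to 0.58 before adjustment (adjusted p = 0.128). The 95% intervals were -0.10 to 0.14 for EED, -0.11 to 0.14 for JARID2 and -0.24 to 0.10 for DNMT1. Those intervals bound the differences without showing that the groups are alike.

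SK_N_BE2_shL5 and SK_N_SH_shNC, the groups with low levels, differed in 4 of the 10 genes, in a comparison where 44.1% of tested genes passed, 26.9% higher and 17.2% lower. EZH1 was 1.61-fold lower in SK_N_BE2_shL5 (log2 fold -0.55, SE 0.07, adjusted p = 0.000163), DNMT3A 1.39-fold lower (log2 fold -0.38, SE 0.05, adjusted p = 0.000109) and TET2 1.36-fold lower (log2 fold -0.31, SE 0.07, adjusted p = 0.00348). DNMT1 was 1.22-fold higher (log2 fold 0.27, SE 0.08, adjusted p = 0.0156), a call that ended with other scalings of the libraries and without the third SK_N_SH_shNC library or the first SK_N_BE2_shL5 library. EED did not pass (log2 fold 0.11, adjusted p = 0.137), but did when the second SK_N_BE2_shL5 library was left out (log2 fold 0.16, adjusted p = 0.0376). EZH2 did not pass (log2 fold -0.09, 95% interval -0.36 to 0.18, adjusted p = 0.587). Nor did TSPYL5 (log2 fold -0.01, SE 0.05, adjusted p = 0.880, limma). The direction of the calls over all genes depended on scaling here: 60.9% of them were higher in SK_N_BE2_shL5 as deposited, 39.6% with libraries set to an equal FPKM total and 40.3% with an equal upper quartile.

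**Figure D3:**
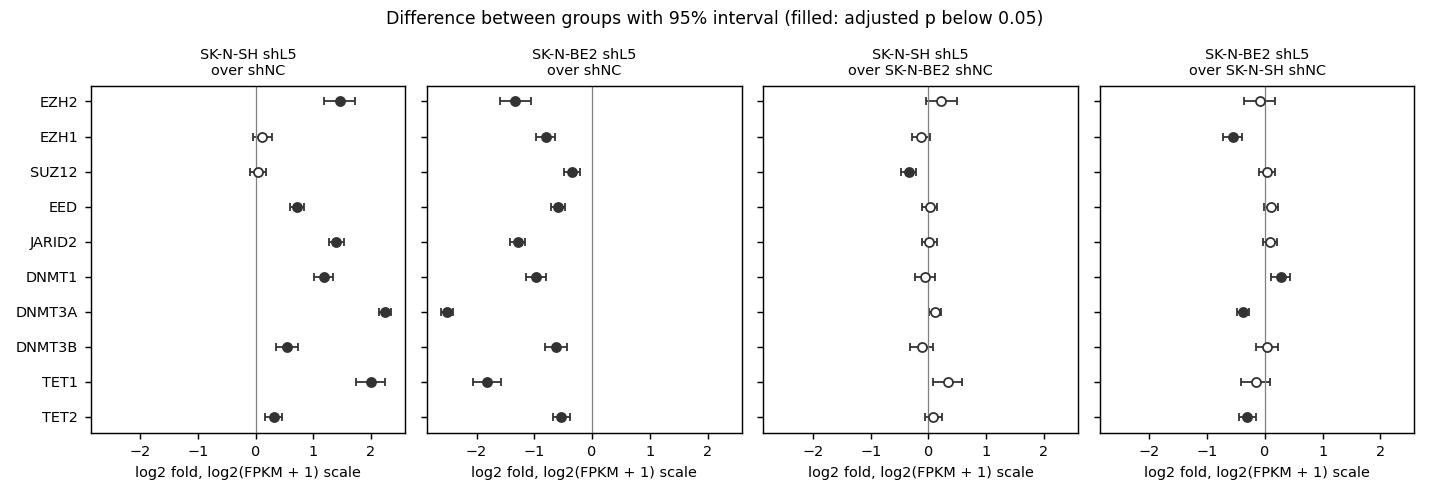
Log2 fold of each gene on the log2(FPKM + 1) scale (horizontal axis) with its 95% interval in 4 comparisons, with filled points for an adjusted p below 0.05. The points of the first 2 panels lie on opposite sides of 0, and in the last 2 panels most intervals include 0, apart from SUZ12 in the third and EZH1, DNMT3A, TET2 and DNMT1 in the fourth among those that passed.

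The counts of the gene lists below stand beside 40.7% of all tested genes higher and 39.0% lower in SK_N_SH_shL5, and 39.9% higher and 40.2% lower in SK_N_BE2_shL5. Of 8 further PRC2 subunits tested (RBBP4, RBBP7, AEBP2, MTF2, PHF1, PHF19, EPOP and LCOR), 6 were higher and 1 lower in SK_N_SH_shL5, and 1 was higher and 5 lower in SK_N_BE2_shL5. EPOP, an accessory subunit, had means of 3.402 and 11.6 FPKM in SK_N_SH_shNC and SK_N_SH_shL5 (log2 fold 1.53, SE 0.10, adjusted p = 4.23e-08), and RBBP4, a histone-binding subunit shared with other complexes, 11.1 and 28.3 FPKM (log2 fold 1.28, SE 0.05, adjusted p = 3.17e-10). PHF1, a subunit that binds methylated lysine 36, went the other way, from 16.1 to 10.3 FPKM there (log2 fold -0.60, SE 0.09, adjusted p = 4.77e-05) and from 9.98 to 17.3 FPKM between SK_N_BE2_shNC and SK_N_BE2_shL5 (log2 fold 0.73, SE 0.09, adjusted p = 8.13e-06). With libraries set to an equal FPKM total, 4 rather than 6 of these subunits were higher in SK_N_SH_shL5. Of the 2 lysine 27 demethylases, KDM6A and KDM6B, 1 was lower and 1 did not pass within each labelled line. KDM6A was 1.27-fold lower in SK_N_SH_shL5 (adjusted p = 0.00487, limma) and KDM6B 1.55-fold lower in SK_N_BE2_shL5 (adjusted p = 7.40e-06, limma).

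Of 9 tested genes that work with the DNA methyltransferases and TET enzymes, 8 were higher and none lower in SK_N_SH_shL5, and 8 were lower and none higher in SK_N_BE2_shL5. IDH2, which makes the 2-oxoglutarate that TET enzymes use, went from 15.1 to 87.8 FPKM (5.81-fold, log2 fold 2.46, SE 0.10, adjusted p = 7.94e-10), and TET3 from 2.51 to 9.94 FPKM (3.97-fold, log2 fold 1.64, SE 0.06, adjusted p = 4.20e-10). IDH1 was the tested gene that missed the threshold under the SK-N-SH label (17.0 and 15.9 FPKM, adjusted p = 0.0993, limma). Between the groups with low levels, 3 of the 9 were higher and 1 lower in SK_N_BE2_shL5, and 2 higher and 2 lower under either other scaling. Of all tested genes 26.9% were higher and 17.2% lower there as deposited, so nothing is read from these counts. UHRF1, which brings DNMT1 to hemimethylated sites, was 1.40-fold higher there (adjusted p = 0.00209, limma), and its paralog UHRF2 1.61-fold lower (adjusted p = 1.28e-05, limma).

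Genes of proteins that read methylated CpG were called in either direction, with 2 of 7 higher and 4 lower in SK_N_SH_shL5 and 4 higher and 2 lower in SK_N_BE2_shL5. ZBTB4, a zinc finger reader, had means of 21.8 and 3.96 FPKM in SK_N_SH_shNC and SK_N_SH_shL5 (5.499-fold lower, log2 fold -2.20, SE 0.06, adjusted p = 1.25e-11), and its relative ZBTB38 7.85 and 2.36 FPKM (3.32-fold lower, adjusted p = 4.74e-10, limma). ZBTB33, the Kaiso reader, rose from 4.08 to 9.75 FPKM (2.39-fold, adjusted p = 1.04e-08, limma). Of 20 subunits of PRC1, the complex that binds the PRC2 mark and ubiquitinates histone H2A, 10 were higher and 6 lower in SK_N_SH_shL5, and 5 higher and 13 lower in SK_N_BE2_shL5. In SK_N_SH_shL5 the PRC1 counts are near the shares of all tested genes, and nothing is read from them. The chromobox subunits CBX2 and CBX6 were 3.56-fold and 2.75-fold higher in SK_N_SH_shL5 (adjusted p = 2.05e-08 and 5.21e-10, limma), while PCGF5 was 8.90-fold and the ubiquitin ligase RNF2 2.18-fold lower (adjusted p = 2.27e-09 and 9.59e-10, limma). Of 8 genes whose products oppose polycomb, 5 were higher and 3 lower in SK_N_SH_shL5. In SK_N_BE2_shL5 3 were higher and 5 lower, with 1 higher at an equal FPKM total. Largest in SK_N_SH_shL5 were KMT2A (2.23-fold higher, adjusted p = 9.17e-06, limma) and BAP1 (1.40-fold lower, adjusted p = 4.51e-06, limma).

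**Figure D4:**
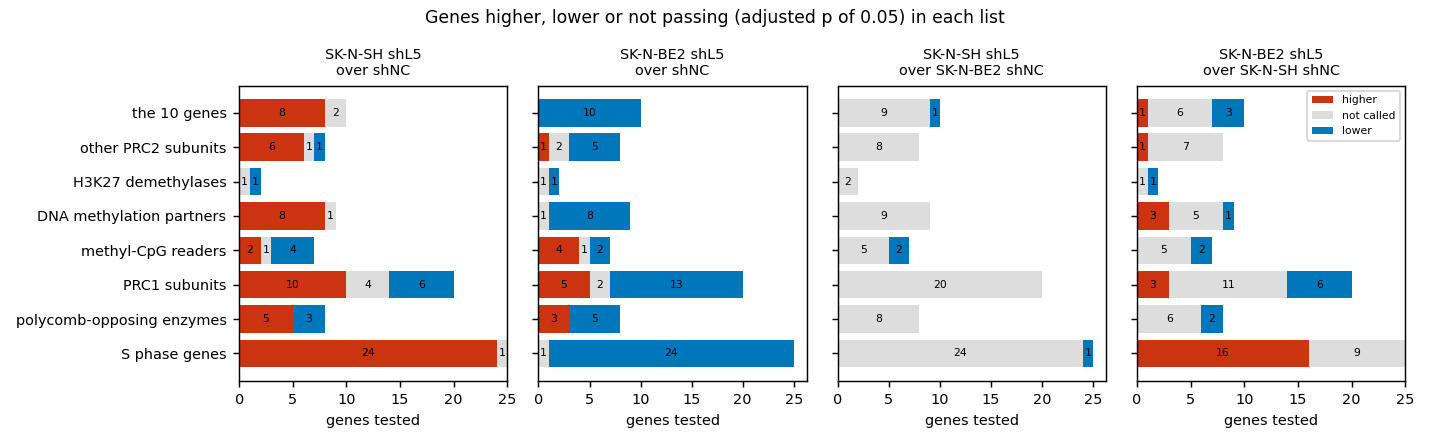
Number of tested genes (horizontal axis) that were higher, lower or not past the threshold of 0.05 in each list, in 4 comparisons. S phase genes and DNA methylation partners lie almost wholly on one side within each labelled line, 24 of 25 and 8 of 9, while methyl-CpG readers and PRC1 subunits were called in either direction, as were all tested genes.

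EZH2, DNMT1 and several partners are known to be transcribed most in dividing cells, so S phase genes were summed beside them. The 25 S phase genes summed to 310, 268 and 230 FPKM in SK_N_SH_shNC and to 1038, 1061 and 1185 FPKM in SK_N_SH_shL5. They summed to 1152, 1186 and 1151 FPKM in SK_N_BE2_shNC and to 456, 333 and 359 FPKM in SK_N_BE2_shL5. In SK_N_SH_shL5 24 of the 25 were higher and none lower, and in SK_N_BE2_shL5 24 were lower and none higher, against 40.7% and 40.2% of all tested genes. E2F1 and E2F2, activators of S phase genes, were 9.66-fold and 18.1-fold higher in SK_N_SH_shL5 (adjusted p = 9.61e-10 and 1.76e-09, limma), and 5.65-fold and 17.1-fold lower in SK_N_BE2_shL5 (adjusted p = 8.23e-09 and 1.53e-09, limma).

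S phase genes also separated the groups that were low in EZH2 and DNMT1. In SK_N_BE2_shL5 against SK_N_SH_shNC 16 of the 25 were higher and none lower, where 26.9% of all tested genes were higher and 17.2% lower. Under either other scaling of the libraries 15 were higher. As deposited, CDC6 was 2.43-fold and CCNE1 2.28-fold higher in SK_N_BE2_shL5 (adjusted p = 1.92e-05 and 9.78e-06, limma). Of the 10 genes DNMT1 passed upward there, under the scaling as deposited, and EZH2 did not pass. Within SK_N_SH_shNC and SK_N_BE2_shL5, the library with the highest S phase sum, 310 and 456 FPKM, was also the highest of its group in EZH2, EZH1, SUZ12, DNMT1, DNMT3A, TET1 and TET2, so this order was not particular to EZH2 and DNMT1. EZH1, DNMT3A and TET2 were lower in SK_N_BE2_shL5 than in SK_N_SH_shNC, DNMT1 was higher as deposited, and the other 6 genes did not pass. The part of cell division in the levels of the 10 genes was not tested.

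**Figure D5:**
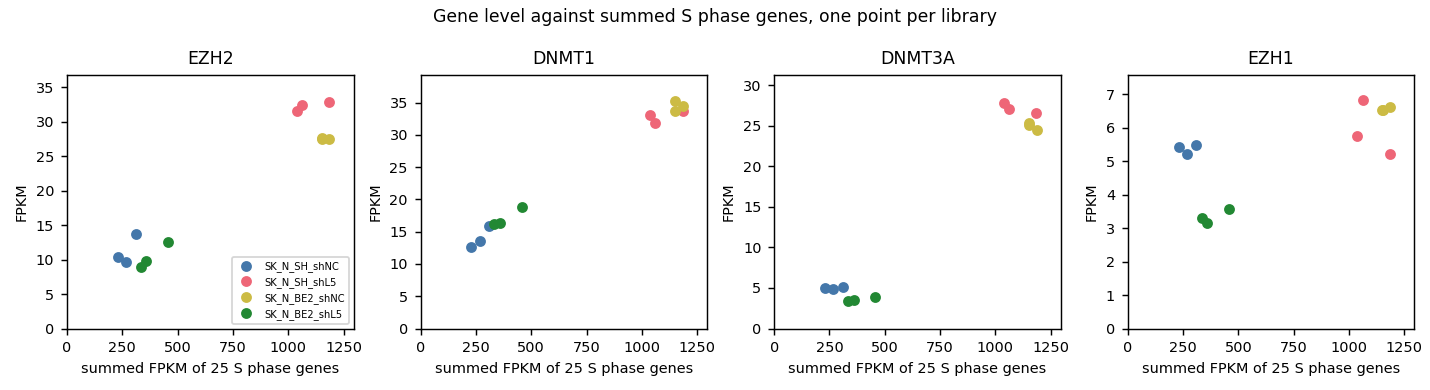
FPKM of EZH2, DNMT1, DNMT3A and EZH1 (vertical axes) against the summed FPKM of 25 S phase genes (horizontal axis), with 1 point per library coloured by group. The 6 libraries with sums above 1000 hold the high EZH2, DNMT1 and DNMT3A levels. EZH1 is lowest in SK_N_BE2_shL5, and the sums are lowest in SK_N_SH_shNC.

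Genes known as silenced by these enzymes differed in direction. Of 12 germline genes known to be held silent by DNA methylation, 3 were tested, and 1 was higher and 2 lower in SK_N_SH_shL5, with the reverse in SK_N_BE2_shL5. TDRD1, a piRNA pathway gene, had 0 reads in SK_N_SH_shNC and SK_N_BE2_shL5 and means of 9.05 and 9.16 FPKM in the other groups, through which it passed the filter. MAGEB2, a cancer-testis antigen, had 0 reads in SK_N_SH_shL5 and SK_N_BE2_shNC. It passed the filter through the other groups, with means of 2.75 FPKM in SK_N_SH_shNC and 5.70 FPKM in SK_N_BE2_shL5. MAGEA1 had a mean of 8.21 FPKM in SK_N_BE2_shL5 and 0.416 FPKM in SK_N_SH_shNC, a 19.7-fold difference (log2 fold 2.69, adjusted p = 5.52e-08, limma), and at most 1 read in either other group, so it passed the filter through SK_N_BE2_shL5. Over a group, 3 reads would equal 0.0102 to 0.0113 FPKM for TDRD1 and 0.0312 to 0.0367 FPKM for the MAGE genes.

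Of 4 neuroblastoma genes known to be repressed by EZH2 2 were tested, with 1 called in each direction within either labelled line. CLU, a secreted chaperone, was at 50.7 and 37.1 FPKM in SK_N_SH_shNC and SK_N_BE2_shL5 and at 4.82 and 5.21 FPKM in SK_N_SH_shL5 and SK_N_BE2_shNC. NGFR, a neurotrophin receptor, ran the opposite way, at 0.0557 and 0.260 FPKM against 4.47 and 5.10 FPKM. NGFR passed the filter through SK_N_SH_shL5 and SK_N_BE2_shNC. CASZ1, a differentiation factor, was under the filter at 0.0392 to 0.513 FPKM. Of 4 neuroblastoma genes known to be methylated 2 were tested, with 1 lower and 1 not past the threshold in SK_N_SH_shL5 and both higher in SK_N_BE2_shL5. CASP8 is an apoptosis enzyme whose promoter is known to be methylated in many neuroblastomas. It was at 4.20 and 3.57 FPKM in SK_N_SH_shNC and SK_N_BE2_shL5, through which it passed the filter. In the other groups it was at 0.287 and 0.286 FPKM. RASSF1, a tumour suppressor gene, was at 3.73 FPKM in SK_N_SH_shNC, 3.30 in SK_N_SH_shL5, 3.69 in SK_N_BE2_shNC and 7.60 in SK_N_BE2_shL5, and did not pass under the SK-N-SH label (log2 fold -0.13, SE 0.12, adjusted p = 0.317) or between the controls (adjusted p = 0.962, limma). Histone and DNA methylation were not measured in these libraries.

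Genes with the most similar patterns were sought among 7571 tested genes with a mean of at least 5 FPKM, by Pearson's r of log2(FPKM + 1) over the 12 libraries. The libraries fall into high and low groups, so an r near 1 is common: 1256 genes exceeded 0.95 with EZH2, 1546 with DNMT1, 1427 with DNMT3A, 1717 with JARID2, 1655 with EED and 1285 with TET1. EZH2 was nearest HMGB2, ASF1A and STAG2 (0.993 to 0.995), DNMT1 nearest MCM2, SART1 and ZNF367 (all 0.998), and DNMT3A nearest CEP44, DLK1 and SKP2 (all 0.999). EED was nearest GMNN, MACO1 and NCL (0.997 to 0.998), JARID2 nearest H2AFY2, NUDT11 and HDAC2 (all 0.998), and TET1 nearest TET3, CAMK4 and RBFOX2 (0.992 to 0.993).

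The other 4 genes had rarer patterns. For DNMT3B 101 genes exceeded 0.95, led by OSGEP (0.982), TMOD2 and AP002387.1, and for TET2 91, led by ENPP2 (0.989) and METTL7A (0.984). EZH1 had 15 such genes, with IL11RA (0.975), TRIB2 (0.974) and NES (0.969) nearest. SUZ12 had 0, its nearest being KLHL5 (0.914), ZNF644 (0.880) and PSPC1 (0.876). These values describe 12 libraries in 4 groups and share the scaling of each library.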

How the data were processed

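RNA was sequenced from 12 libraries in 4 groups of 3. Input was 3 µg per library for a NEBNext Ultra kit, per the labels' protocols. The authors ran HISAT2 2.0.5 and featureCounts 1.5.0-p3, and mm10 is the build listed, per the submitters' processing notes. The authors' deposited table holds FPKM of human genes, and all 58735 gene starts and ends equal GENCODE 29 on GRCh38, so the mm10 entry was not used. No strand setting is given in the sources used here. FPKM times gene length came out as whole reads for 100% of values (tolerance 0.05 reads), and the FPKM denominator was proportional to size factors rather than to totals.

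Tests were run on log2(FPKM + 1) in limma 3.58.1 (R 4.3.3), for genes averaging 0.5 FPKM or more, with 4 group means, moderation with an intensity trend, two-sided p and Benjamini-Hochberg adjustment within each of 6 comparisons at a threshold of 0.05. That scale understates the change of low genes. A stated fold is the quotient of 2 group mean FPKM values. The code was tested on simulated data. The genes and lists were chosen with earlier results of these data known. Named were the 10 genes, TSPYL5, MYCN, up to 2 genes per list, direction and comparison with the largest log2 fold, and the 3 most similar genes, of which 1 is not reported here. TH, CHGA, KRT8, KRT18, CASZ1, S1PR2, SUZ12P1, IDH1 and the non-passing values of RASSF1 were added after their values were seen. Alternatives were other pseudocounts, filters, scalings and spreads, a replicate block, limma-voom on whole reads, and leaving out each library. Limma-voom called 12594 genes for SK-N-SH shL5 over shNC and 12631 for SK-N-BE2.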

Additional observations from a re-analysis of the deposited data

Results flagged for a closer look

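The difference between libraries labelled shL5 and shNC differed between the SK-N-SH and SK-N-BE2 labels for each of the 10 genes, by a test of that difference (limma, adjusted p below 0.05), as for 84.9% of tested genes. The difference of the log2 folds, SK-N-BE2 minus SK-N-SH, was -2.79 for EZH2, -0.92 for EZH1, -0.39 for SUZ12, -1.30 for EED and -2.69 for JARID2. It was -2.15 for DNMT1, -4.74 for DNMT3A, -1.17 for DNMT3B, -3.81 for TET1 and -0.85 for TET2. TSPYL5 differed by -1.33 (SE 0.07, adjusted p = 4.07e-09) in that test. Groups of 3 are too small for a search for single outlying libraries. TSPYL5 was higher in the SK_N_SH_shL5 libraries, against their label, so these values describe the labelled groups, and an effect of the hairpin cannot be told apart from a difference between lines.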

How the results depend on the processing

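Across 23 alternatives, 12 of them leaving out a library, 1346 of 1370 single-gene values kept direction and side of the threshold, 5 lost a call, 3 gained one and 16 changed sign, and none of the last was past the threshold. The numbers of the 10 genes that passed stayed within 1.5 times of the main count, except for SK-N-SH shL5 over SK-N-BE2 shNC, where it was 2 in place of 1 with the spread from those groups alone. There the 854 genes called became 549 with a pseudocount of 0.01 and 474 to 991 without single libraries, the low values coming from leaving out a library of either group other than the third SK_N_SH_shL5 library (474 to 527). The cause was not tested. In that comparison an equal FPKM total gave EED -0.002542 and JARID2 -0.007786, and leaving out single libraries gave EED -0.007862 (without SK_N_SH_shL5 replicate 3) to 0.03781 and JARID2 -0.04468 (without SK_N_SH_shL5 replicate 3) and -0.005181 (without SK_N_BE2_shNC replicate 3) to 0.05525. For SK-N-BE2 shL5 over SK-N-SH shNC, an equal FPKM total gave SUZ12 -0.09838, EED -0.003071, JARID2 -0.01861 and DNMT3B -0.06101, and an equal upper quartile gave SUZ12 -0.08751, JARID2 -0.00939 and DNMT3B -0.05326. Leaving out single libraries there gave EZH2 -0.2216 to 0.04512 (positive without SK_N_SH_shNC replicate 1 or SK_N_BE2_shL5 replicate 2), DNMT3B -0.06266 (without SK_N_SH_shNC replicate 1) to 0.09801, and SUZ12 -0.00206 (without SK_N_SH_shNC replicate 2) to 0.07129. DNMT1 lost its call there at adjusted p = 0.241 (equal total), 0.154 (equal upper quartile), 0.0887 (spread from those groups alone), 0.0664 without SK_N_SH_shNC replicate 3 and 0.0557 without SK_N_BE2_shL5 replicate 1, by limma. With the replicate number as a block the 10 genes gave 8, 10, 10, 10, 1 and 4 calls in the 6 comparisons, as without it, and 12569, 12619, 13393, 12541, 692 and 6752 genes were called. Deviations of libraries with a shared number correlated at -0.0751 to 0.102, and those with unlike numbers at -0.149 to 0.121, so no pairing by number was seen. With 3 libraries per group a weak pairing could be missed. A fit on 2 groups alone has no value for the difference of the effects. Depth limits TET1 most, with 26 reads in its lowest library.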
